A study of Mus musculus with 8 samples.

Results

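The genes described here are those on the mouse mitochondrial chromosome. They were taken as every row of the deposited expression table whose coordinates lie on chrM of the mm10 build, with or without a gene symbol. The table had 13 such rows out of 56576, and 0 of the 13 carried a symbol. Each row, called an entry below, was therefore named by the GENCODE M21 genes that its span overlaps. The entries are not single genes: several span a run of neighbouring genes, some lie inside others, and no strand is given for them. No transfer RNA had an entry of its own, so transfer RNAs could be followed only as stretches inside longer entries.

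The mitochondrial chromosome is a small circle, transcribed from both strands into long precursors that are cut into ribosomal RNAs, transfer RNAs and messenger RNAs. Its messenger RNAs encode core subunits of respiratory chain complexes I, III and IV and of the ATP synthase, and all of them are translated inside the organelle by mitochondrial ribosomes. Synapses are rich in mitochondria, which supply ATP and buffer calcium at presynaptic and postsynaptic sites. The immunoprecipitation in this study used a tag on Rpl22, a protein of the cytosolic ribosome and not of the mitochondrial one.

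RNA was sequenced from HA-tagged ribosomes pulled down from cortical synaptosomes of mice at postnatal day 15. Synaptosomes are pinched-off synapses, and the study described such preparations as mostly holding both a presynaptic and a postsynaptic side. The 4 control libraries came from Lhx6-Cre;Erbb4+/+;Rpl22HA/HA mice and are numbered 1, 3, 4 and 5. The 4 mutant libraries came from Lhx6-Cre;Erbb4F/F;Rpl22HA/HA mice and are numbered 2, 3, 4 and 5, so all 8 carry the Cre driver and the tagged ribosomal protein. Lhx6-Cre recombines in interneurons of the medial ganglionic eminence and the preoptic area, among them parvalbumin and somatostatin cells. Erbb4 encodes a neuregulin receptor that the study describes as enriched in the parvalbumin cells but not in the somatostatin cells. The study described its biological replicates in general as coming from separate brains and litters, without the number of animals behind each library here. It showed these libraries in separate sequencing batches under sample numbers that differ from those of the labels, so no library was assigned to a batch.

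Between 51010687 and 80226984 reads per library were counted on genes, so counting error was small beside the spread between libraries. Erbb4 had normalized counts of 1640, 5377, 4306 and 3034 in control replicates 1, 3, 4 and 5, and of 1711, 1648, 1233 and 1048 in mutant replicates 2, 3, 4 and 5. The library labelled control replicate 1 thus lay below 2 mutant libraries for the targeted gene. The log2 fold change of Erbb4 was -1.25 (standard error 0.34, adjusted p = 0.58 from limma, as below) with all libraries and -1.58 without control replicate 1. Because of this library, the log2 fold changes of the mitochondrial entries are also given without it. Of 9 interneuron markers, 4 were called lower in mutants (Erbb4, Gad1, Gad2 and Pvalb), where 3.17% of all genes tested were, and all 9 had a log2 fold change below 0. The summed normalized count of all 9 was 61163 to 489727 in controls and 19619 to 193168 in mutants, ranges that overlapped. Sst, which was not called, made up 367992 of the 489727 in control replicate 3 and 5964 of the 19619 in mutant replicate 5. Of 6 oligodendrocyte markers, 2 were called lower, Mag and Mog. All 6 together summed to 659871 in control replicate 1, 224894 to 352720 in the other controls and 195276 to 280961 in mutants. Mbp, which was not called, made up 535543 of the sum in control replicate 1. Of 6 endothelial and mural markers Flt1 was called higher, where 3.98% of all genes were, and 0 of 6 astrocyte and 0 of 6 microglia markers were called. Without control replicate 1, Erbb4 was the only one of the 7 markers called above that was still called. The part of these markers in the mitochondrial values was not tested, and in bulk samples fewer cells of a type and less RNA per cell cannot be told apart.

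GENCODE places 37 genes on the chromosome: 2 ribosomal RNAs, 22 transfer RNAs and 13 protein-coding genes. The entries covered at least 99% of 21 of them, part of 6, and none of 10. Among the protein-coding genes 9 were covered, mt-Co3 was covered over 24.0% of its length, and mt-Co2, mt-Atp8 and mt-Atp6 had no entry. Of the transfer RNAs, 11 were covered, 4 in part and 7 not at all. The widest stretch without an entry was 2261 bases long, chrM:6942-9202, and holds mt-Co2, mt-Atp8, mt-Atp6 and the start of mt-Co3. Of these, mt-Co2, mt-Atp6 and mt-Co3 have copies on the minus strand of chromosome 1, annotated as the pseudogenes Gm28661, Gm10925 and Gm28437, and the table has entries there.

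Copies of this kind limit what a count can tell, and 1 of them matches the entry with the widest difference in these data. GENCODE annotates 7 pseudogenes in the chromosome 1 copy, of which 5 match the mitochondrial gene over the whole pseudogene at 100%. The copy of mt-Nd3, Gm28438, is 345 bases long and differs at 1 base, T3C, with positions counted from 1 at the 5′ end of mt-Nd3 and the mitochondrial base first. The copy of mt-Co1, Gm29216, also differs at 1 base over 483 aligned bases, A1066T counted from the 5′ end of mt-Co1. The sequences around both differences, from GENCODE transcripts on GRCm38 (mm10), show how little there is to tell a read from the organelle and a read from the nucleus apart. The differing base is in capitals.
mt-Nd3, chrM:9459-9518, plus strand: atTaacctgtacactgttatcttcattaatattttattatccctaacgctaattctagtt
Gm28438, chr1:24613060-24613119, minus strand: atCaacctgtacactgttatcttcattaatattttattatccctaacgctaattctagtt
mt-Co1, chrM:6390-6449, plus strand: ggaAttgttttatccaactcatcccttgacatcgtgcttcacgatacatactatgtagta
Gm29216, chr1:24616129-24616188, minus strand: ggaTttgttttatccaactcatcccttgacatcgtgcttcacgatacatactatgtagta
How reads that match both places were handled is not given in the sources used here, nor is which base at these positions the mice of either genotype carried. The values of the Co1, Co3-Nd4l, Nd3 and Nd4l-Nd4 entries are therefore uncertain as measures of the organelle's own transcripts.

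Of the mitochondrial entries, those of the 12S ribosomal RNA, of mt-Nd3 and its surroundings and of the control region were called lower in Erbb4 mutants. An entry was called when its unadjusted limma p was at most 0.05 and its fold change at least 1.5, on the scale log2(normalized count + 1). By this rule 6 of 13 entries were lower and 0 were higher, against 3.17% of all 31171 genes tested called lower and 3.98% called higher. One entry, Nd3, had an adjusted p under 0.05, as did 0.0449% of all genes. In 3 entries every mutant lay below every control, as in 2.17% of all genes. All 13 log2 fold changes were below 0, although inner Nd1 was above 0 with library weights (0.09) and with a replicate block (0.02), with a median of -0.68 against 0.06 over all genes. Among the 1239 genes averaging 10000 normalized counts or more, 8.80% were called lower and the median was -0.11. Entries that overlap share sequence, and all 13 come from 1 chromosome in the same libraries, so they are not independent of each other.

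**Figure D1:**
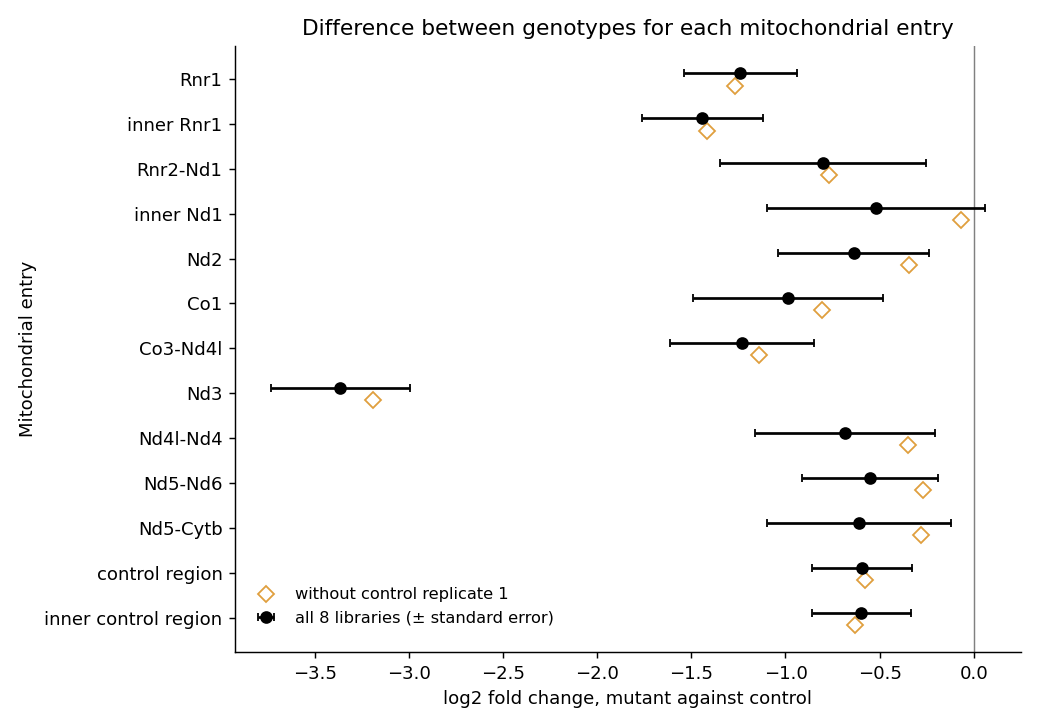
Log2 fold change of each mitochondrial entry (vertical axis, in map order), mutant against control, with its standard error (black) and without control replicate 1 (open diamonds). All 13 points lie below 0 in both series, and Nd3 lies farthest, at -3.36 and -3.19.

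Without control replicate 1, 4 entries were still called lower (Rnr1, inner Rnr1, Co3-Nd4l and Nd3), against 2.06% of all genes, and 0 had an adjusted p under 0.05. These 4 were called under each of the 18 alternative settings or library sets tried. Without control replicate 4, which had the lowest values of the controls in 11 entries, 11 entries were called lower, against 4.93% of all genes. The scale of the libraries also mattered for all genes: dividing by the reads on nuclear genes moved the median log2 fold change of all genes up by 0.15. Under that scaling 497 genes were called lower and 2069 higher, in place of 988 and 1241. Relative to the median of all genes, the entries' median was -0.74 in the main scaling and -0.73 in that one. DESeq2, a different test run on recovered reads, called 1573 of 30590 genes lower and 1261 higher.

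The 12S ribosomal RNA, mt-Rnr1, is the RNA of the small subunit of the mitochondrial ribosome. Its entry, chrM:68-957, covers 93.0% of the gene. It had normalized counts of 74269, 55862, 66276 and 136645 in control replicates 1, 3, 4 and 5, and of 36411, 39814, 28223 and 29443 in mutant replicates 2, 3, 4 and 5. Every mutant lay below every control. The means were 83263 ± 36377 and 33473 ± 5557 (SD, n = 4 each), and the log2 fold change was -1.24 (standard error 0.30, adjusted p = 0.58). Without control replicate 1 it was -1.27.

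A second entry, inner Rnr1, lies inside the first at chrM:332-623 and overlaps no gene but mt-Rnr1. It is shown because it is the only called entry made of ribosomal RNA sequence alone, with bases as in GENCODE transcripts on GRCm38.
Inner Rnr1, chrM:332-623, plus strand: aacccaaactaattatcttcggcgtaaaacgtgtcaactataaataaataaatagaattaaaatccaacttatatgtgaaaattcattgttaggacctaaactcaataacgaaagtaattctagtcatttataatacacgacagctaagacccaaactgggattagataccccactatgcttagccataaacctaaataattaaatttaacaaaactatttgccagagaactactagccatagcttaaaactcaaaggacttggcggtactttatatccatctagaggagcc
Its normalized counts were 49273, 25892, 43971 and 83969 in control replicates 1, 3, 4 and 5, and 14738, 16275, 18490 and 19509 in mutant replicates 2, 3, 4 and 5. The genotypes again did not overlap, and the mutants spanned 1.32-fold from lowest to highest against 3.24-fold in controls. The log2 fold change was -1.44 (standard error 0.32, adjusted p = 0.58), and -1.41 without control replicate 1. DESeq2 gave adjusted p-values under 0.05 to both Rnr1 entries, and limma and edgeR to neither.

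The 16S ribosomal RNA, mt-Rnr2, is the RNA of the large mitochondrial subunit and could not be separated from a messenger RNA. Its entry, Rnr2-Nd1 at chrM:1094-3841, also holds mt-Nd1, a complex I subunit, and 3 transfer RNAs. With 1573635, 1573559, 939384 and 2032497 normalized counts in control replicates 1, 3, 4 and 5, it ranked from 1 to 3 in the whole table in every library. Mutant replicates 2, 3, 4 and 5 had 1217545, 1322019, 571787 and 558109. Mutants 4 and 5 lay below all controls, while mutants 2 and 3 lay between control 4 and the other controls. The log2 fold change of -0.80 (standard error 0.55, adjusted p = 0.63) did not pass the test, and it was -0.77 without control replicate 1. Inside it, the inner Nd1 entry at chrM:3401-3555 covers messenger RNA only. It had 16206, 13138, 2069 and 3660 normalized counts in control replicates 1, 3, 4 and 5, a 7.83-fold range, and 3616 to 6873 in mutants. The entry's log2 fold change was -0.52 (standard error 0.58, adjusted p = 0.76), and -0.07 without control replicate 1.

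**Figure D2:**
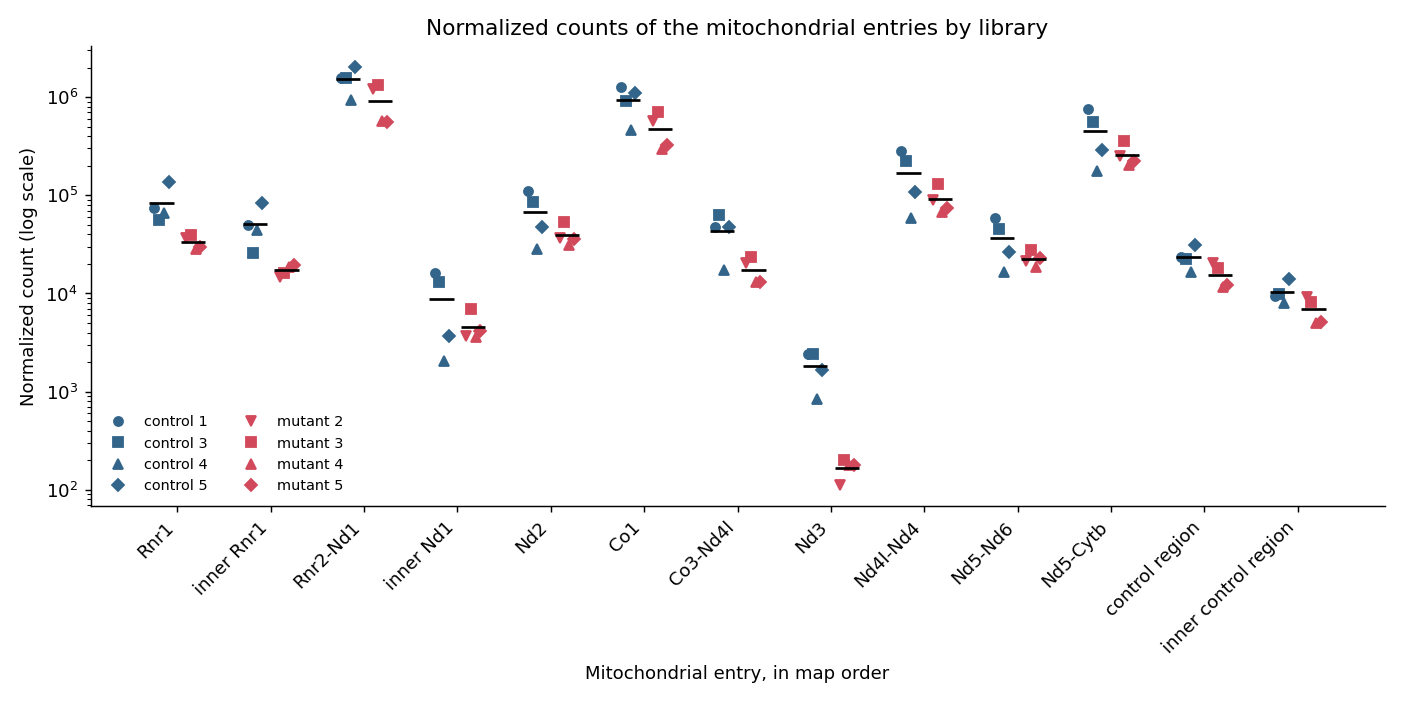
Normalized counts (log axis) of the 13 mitochondrial entries in map order, with a point for each of 4 control (blue) and 4 mutant (red) libraries and a bar at each mean. The genotypes separate fully for Rnr1, inner Rnr1 and Nd3, and overlap in the other 10.

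The widest difference was in the entry over mt-Nd3, which encodes a small hydrophobic subunit of complex I. The Nd3 entry, chrM:9459-9804, covers 99.4% of this gene and no other. It had normalized counts of 2431, 2417, 838 and 1660 in control replicates 1, 3, 4 and 5, and of 112, 201, 177 and 178 in mutant replicates 2, 3, 4 and 5. The genotypes were far apart, with no overlap. These values rest on 837 to 2355 reads in controls and 131 to 218 reads in mutants. The means were 1836 ± 757 and 167 ± 38.4 (SD, n = 4 each), an 11.0-fold ratio. The log2 fold change was -3.36 (standard error 0.37, adjusted p = 0.0089), which placed it 7 of 31171 by p-value. Without control replicate 1 it was -3.19 and the adjusted p was 0.052, and over all alternatives the adjusted p ran from 3.8e-17 to 0.10.

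The Nd3 entry lies wholly inside another, Co3-Nd4l at chrM:9203-9888, which spans the end of mt-Co3 (a complex IV subunit), mt-Tg, mt-Nd3, mt-Tr and the first bases of mt-Nd4l. Co3-Nd4l had 47596, 62543, 17516 and 47032 normalized counts in control replicates 1, 3, 4 and 5, and 20220, 23372, 13129 and 13060 in mutant replicates 2, 3, 4 and 5. It was called lower, at a log2 fold change of -1.23 (standard error 0.38, adjusted p = 0.58), although control 4 lay below mutants 2 and 3. The value was -1.14 without control replicate 1. The surrounding entry thus differed 2.50-fold between the means and the entry inside it 11.0-fold. For every 100 reads on Co3-Nd4l, Nd3 had 5.11, 3.87, 4.78 and 3.53 reads in control replicates 1, 3, 4 and 5, and 0.554, 0.861, 1.35 and 1.36 in mutant replicates 2, 3, 4 and 5. This ratio did not overlap between genotypes. Against the next entry downstream, Nd4l-Nd4, Nd3 had 8.64 to 15.4 reads per 1000 in controls and 1.24 to 2.64 in mutants, and against Co1 15.1 to 26.3 and 1.98 to 5.97 reads per 10000. Which bases of these overlapping spans were counted for which entry is not given in the sources used here. The table has no row at Gm28438, the copy of mt-Nd3, nor at the copies of mt-Nd4l and mt-Nd4. Whether the mice of the 2 genotypes carried the same base at the 1 position where mt-Nd3 and Gm28438 differ was not tested.

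**Figure D3:**
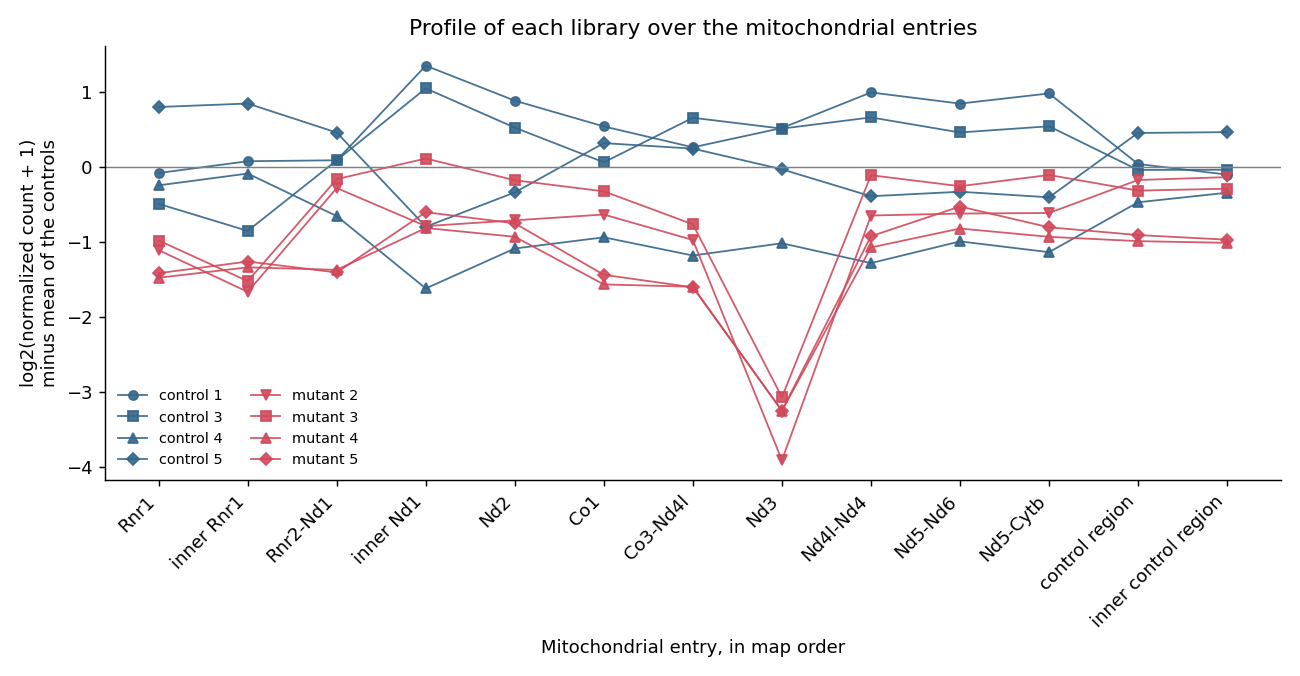
Log2(normalized count + 1) of each entry minus the mean of the controls (vertical axis), across the mitochondrial entries in map order, 1 line per library (controls blue, mutants red). The mutant lines drop to between -3.90 and -3.06 at Nd3, while at the entries on both sides they lie between -1.60 and -0.11.

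The Co1 and Nd4l-Nd4 entries hold messenger RNA of complexes IV and I at high level. Co1, chrM:5325-6941, covers mt-Co1, the catalytic core subunit of complex IV, together with mt-Ts1. It had 1278885, 917975, 459158 and 1095992 normalized counts in control replicates 1, 3, 4 and 5, and 566769, 702011, 297181 and 324747 in mutant replicates 2, 3, 4 and 5. Only control 4 fell within the mutant range. Its log2 fold change was -0.99 (standard error 0.50, adjusted p = 0.58), and -0.80 without control replicate 1. Nd4l-Nd4, chrM:9876-11544, covers mt-Nd4l and mt-Nd4, membrane subunits of complex I, which are read from a shared transcript. It had 281225, 223320, 58119 and 107802 in control replicates 1, 3, 4 and 5, against 67163 to 130910 in mutants. Here controls 1 and 3 lay above all mutants and control 4 below all of them, and the log2 fold change was -0.68 (standard error 0.48, adjusted p = 0.63), and -0.35 without control replicate 1.

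The remaining complex I and complex III entries showed the same order of control libraries and did not pass the test. Nd2, chrM:3845-5171, covers mt-Nd2 of complex I and 4 transfer RNAs, mt-Tm, mt-Tw, mt-Ta and mt-Tn. It had 110578, 86153, 28222 and 47393 normalized counts in control replicates 1, 3, 4 and 5, against 31449 to 53020 in mutants, at a log2 fold change of -0.64 (standard error 0.40, adjusted p = 0.60). Nd5-Cytb, chrM:11742-15288, covers mt-Nd5 and mt-Nd6 of complex I and mt-Cytb, the 1 complex III subunit that the chromosome encodes. It had 761357, 562214, 175695 and 291672 in control replicates 1, 3, 4 and 5, against 202493 to 358496 in mutants, at a log2 fold change of -0.61 (standard error 0.49, adjusted p = 0.67). Within it lies most of Nd5-Nd6, chrM:11720-14070, whose log2 fold change was -0.55 (standard error 0.36, adjusted p = 0.61). Nd5-Nd6 had 7.69 to 10.3 reads for every 100 of Nd5-Cytb in all 8 libraries. In each of these 3 entries controls 1 and 3 were the highest of the 8 libraries and control 4 the lowest. Without control replicate 1 the log2 fold changes of Nd2, Nd5-Cytb and Nd5-Nd6 were -0.34, -0.28 and -0.27. mt-Nd6 is the only protein-coding gene of the minus strand, and with no strand given its reads could not be told from those of mt-Nd5 at their overlap.

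The control region holds the promoters and the origin of heavy-strand replication and encodes no protein. Its entry, chrM:15356-16294, includes mt-Tp, a transfer RNA of the minus strand. It had 23512, 22260, 16507 and 31319 normalized counts in control replicates 1, 3, 4 and 5, and 20280, 18389, 11528 and 12196 in mutant replicates 2, 3, 4 and 5. The genotypes overlapped. The log2 fold change of -0.59 (standard error 0.27, adjusted p = 0.58) only just met both thresholds, and the entry was called in 7 of 18 alternatives. Inner control region, chrM:15763-16189, had -0.60 (standard error 0.26, adjusted p = 0.58) and was called in 9 of 18. Neither was called without control replicate 1, at -0.58 and -0.63 with 3 controls.

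Summed over the 13 entries, mitochondrial reads made up 5.96%, 4.37%, 2.75% and 6.21% of the reads counted on genes in control replicates 1, 3, 4 and 5. They made up 3.59%, 4.17%, 2.06% and 2.26% in mutant replicates 2, 3, 4 and 5. Mutants 4 and 5 lay below all controls, and mutants 2 and 3 lay above control 4, so the genotypes overlapped. The means were 4.82% ± 1.60 and 3.02% ± 1.02 (SD, n = 4 each), with a mutant minus control difference of -1.81 percentage points, or -1.43 without control replicate 1. These sums lack mt-Co2, mt-Atp8, mt-Atp6 and most of mt-Co3, which no mitochondrial entry covers. They also add entries that lie inside or overlap others. Whether a read was counted in more than 1 of these is not given in the sources used here. With the entries of the chromosome 1 copy added, the share was 3.33% to 7.72% in controls and 2.63% to 4.99% in mutants. The genotypes again overlapped, and the difference was -2.28 percentage points. The widest 95% Wilson interval of a single library reached 0.0066 percentage points to each side and covers counting error only. The Rnr1 and inner Rnr1 entries, which hold ribosomal RNA apart from 1 base of mt-Tf, made up 0.0993% to 0.350% of reads on genes in controls and 0.0758% to 0.0863% in mutants, with no overlap.

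**Figure D4:**
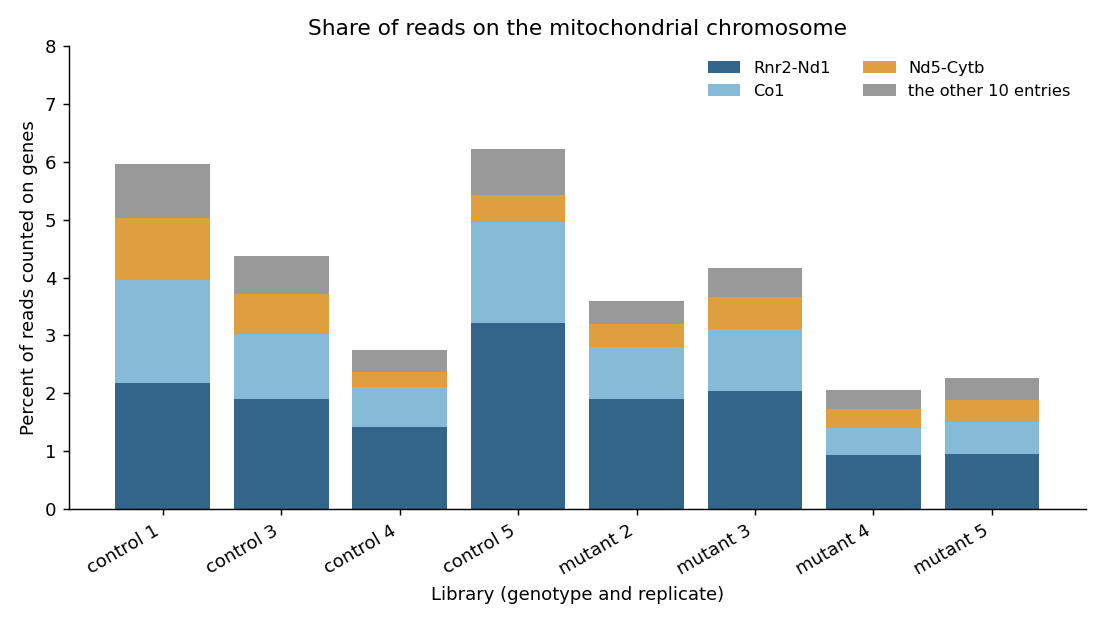
Percent of reads counted on genes that fell on mitochondrial entries, 1 bar per library, divided into Rnr2-Nd1, Co1, Nd5-Cytb and the other 10 entries. Controls reach 2.75% to 6.21% and mutants 2.06% to 4.17%, with most of each bar in Rnr2-Nd1 and Co1.

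Entries of different length were set side by side as reads per kilobase of span and per 1000000 reads on genes. Overlapping spans are each given their own reads on this scale. The reads came from constitutive parts, and how many bases of each span were counted is not given. The order below is therefore that of the entries as counted and cannot be read as transcript levels. Co1 and Rnr2-Nd1 stood well above the rest in controls on this scale, at 8223 ± 3237 and 7943 ± 2778 (SD, n = 4). These neighbours did not differ beyond their spread, and Rnr2-Nd1 was the higher of the pair in 7 of 8 libraries. Inner Rnr1 came next at 2561 ± 1452, then Nd5-Cytb at 1739 ± 959, Nd4l-Nd4 at 1378 ± 784 and Rnr1 at 1369 ± 732. The gaps between these 4 were smaller than their SDs, although Nd5-Cytb lay above Nd4l-Nd4 in 8 of 8 libraries. Co3-Nd4l, inner Nd1 and Nd2 followed at 885, 764 and 708, also within their spread. Both control region entries, Nd5-Nd6 and Nd3 were lowest, with Nd3 at 73.7 ± 26.4 in controls and 7.78 ± 1.82 in mutants, below every other entry in each of the 8 libraries. In mutants Rnr2-Nd1 stood at 5299 ± 2175 and Co1 at 4648 ± 1743 (SD, n = 4).

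The make-up of the mitochondrial reads was compared next, since it does not depend on how the libraries are scaled. Rnr2-Nd1 took 36.7% to 53.2% of the mitochondrial reads of a library, Co1 23.4% to 29.8% and Nd5-Cytb 7.44% to 17.8%. Nd3 was the only entry whose share did not overlap between genotypes, with 0.0423% to 0.0671% in controls and 0.00489% to 0.0140% in mutants. The Rnr1 share was 1.73%, 1.55%, 3.62% and 3.49% in control replicates 1, 3, 4 and 5, and 1.59%, 1.47%, 2.22% and 2.23% in mutant replicates 2, 3, 4 and 5. The Rnr1 shares of the genotypes overlapped, unlike the Rnr1 levels.

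The libraries of a genotype also differed among themselves in make-up. For every 100 reads on Rnr2-Nd1, Nd5-Cytb had 48.4, 35.7, 18.7 and 14.4 reads in control replicates 1, 3, 4 and 5, and 20.7, 27.1, 35.4 and 39.6 in mutant replicates 2, 3, 4 and 5. For every 100 reads on Co1, Rnr1 had 5.81, 6.09, 14.4 and 12.5 in control replicates 1, 3, 4 and 5, and 6.42, 5.67, 9.50 and 9.07 in mutant replicates 2, 3, 4 and 5. Controls 1 and 3 were low in Rnr1 and high in Nd5-Cytb, and controls 4 and 5 the reverse. In mutants, replicates 4 and 5 were the higher ones for both ratios. No label assigns these libraries to a batch, so no value within a batch could be given.

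**Figure D5:**
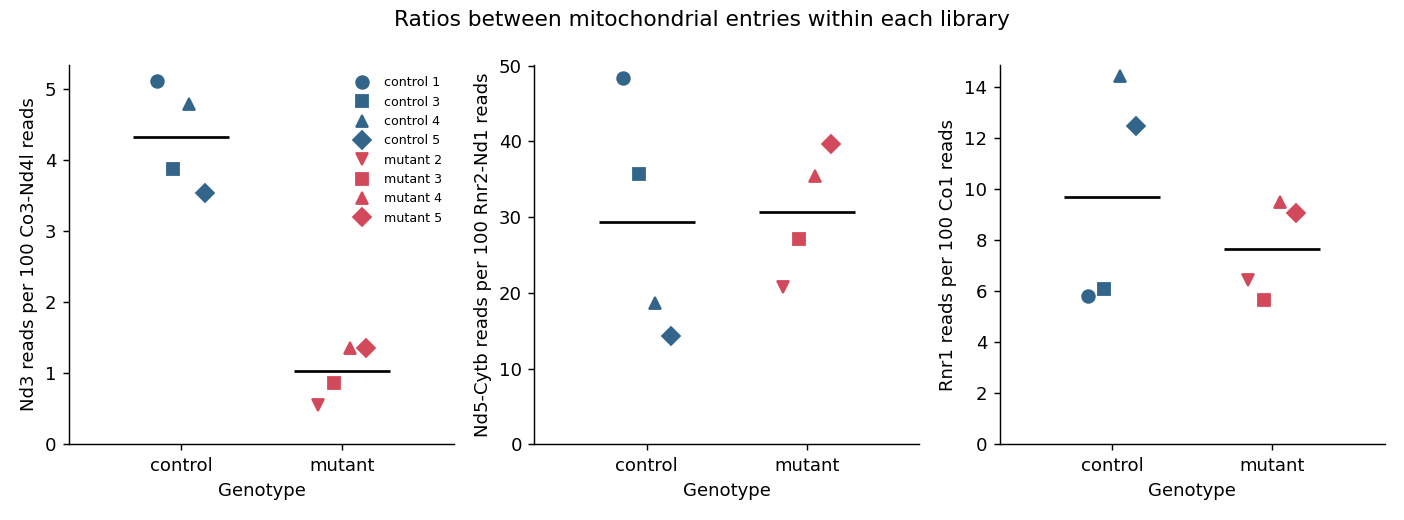
Ratios of reads between entries in each of the 4 control (blue) and 4 mutant (red) libraries, with a bar at each mean: Nd3 per 100 Co3-Nd4l, Nd5-Cytb per 100 Rnr2-Nd1 and Rnr1 per 100 Co1. The genotypes separate only for the first ratio, with controls at 3.53 to 5.11 and mutants at 0.554 to 1.36.

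The chromosome 1 copy had 4 entries of its own, which took 0.574% to 1.76% of the reads on genes in controls and 0.572% to 0.820% in mutants. For every 100 mitochondrial reads, 19.2 to 29.5 fell on the copy in controls and 17.5 to 29.0 in mutants, so the balance between both places overlapped between genotypes. The entry over the copies of mt-Co3 and mt-Atp6, chr1:24613188-24614814, had 791953, 576060, 292156 and 570963 normalized counts in control replicates 1, 3, 4 and 5, and 243956 to 361187 in mutants, at levels like those of the organelle's main entries. Its log2 fold change was -0.88 (standard error 0.41, adjusted p = 0.58), and -0.68 without control replicate 1. The entry over the copy of mt-Co2, chr1:24614879-24615568, was called lower at -1.16 (standard error 0.43, adjusted p = 0.58), and at -0.81 without control replicate 1. The entry over part of the copy of mt-Co1, chr1:24615710-24615972, was called lower at -1.45 (standard error 0.60, adjusted p = 0.58), where control replicate 1 had 53555 normalized counts and the other controls 4285 to 14336. Without that library its value was -0.77, no longer called. The remaining entry, inside the one over the mt-Co3 and mt-Atp6 copies, had -0.24 (standard error 0.49, adjusted p = 0.88).

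Nuclear genes that transcribe, process and translate mitochondrial RNA were described beside the entries. The list also held Polg, Polg2, Twnk, Ssbp1 and Top1mt, which act on mitochondrial DNA. Of the 46 listed genes, all tested, 3 were called lower and 1 higher, against 3.17% and 3.98% of all genes, and 0 had an adjusted limma p under 0.05. The median log2 fold change of the list was -0.20 against 0.06 over all genes. Mrm3, a methyltransferase of the 16S ribosomal RNA, had 1126, 1190, 1140 and 796 normalized counts in control replicates 1, 3, 4 and 5, and 663, 518, 578 and 557 in mutant replicates 2, 3, 4 and 5. These did not overlap, and its log2 fold change of -0.86 (standard error 0.22, adjusted p = 0.58) was called under all 18 alternatives. Tefm, the mitochondrial transcription elongation factor, was called lower at -0.70 (standard error 0.31), and Tufm, the mitochondrial translation elongation factor Tu, at -0.59 (standard error 0.26). Fastkd1, of the FASTK family of mitochondrial RNA-binding proteins, was called higher at 0.90 (standard error 0.36). Tefm, Tufm and Fastkd1 each had an adjusted p of 0.58. Without control replicate 1 only Mrm3 was still called among these 4. The lowest value of the list was that of Tfb1m, which methylates the 12S ribosomal RNA, at -1.34 (standard error 0.63, adjusted p = 0.58). It had 240, 54.4, 123 and 126 normalized counts in control replicates 1, 3, 4 and 5 and 21.4 to 82.2 in mutants, which overlapped. The highest was that of Mterf1b, a member of the transcription termination factor family, at 1.41 (standard error 1.21, adjusted p = 0.69), with control replicate 1 at 0 normalized counts. Without that library Mterf1b was at 0.23 and no longer the highest, and Tfb1m was at -1.01.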

How the data were processed

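Reads were sequenced paired-end from low-input libraries of an amplification kit that does not mark strand. The authors used STAR 2.4.0 on mm10, took the reads in constitutive parts of Fast DB genes, and scaled each library by its DESeq2 size factor. From the deposited signal (normalized counts), reads were recovered by dividing by each library's lowest positive value, and 100% of values came out whole within 0.1 read.

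Genes with a mean of at least 10 in 1 genotype (31171) were tested with limma 3.58.1 (trend) in R 4.3.3 on log2(normalized count + 1), with Benjamini-Hochberg adjustment over all of them. A call required unadjusted p no higher than 0.05 and a 1.5-fold change. Alternatives included edgeR 4.0.16 and DESeq2 1.42.0 on the recovered reads, other scalings and filters, and leaving out each library.

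Per-gene tests had been planned, but entries span several genes and were tested as they stand. All mitochondrial entries, the nuclear genes called and the 2 lowest and 2 highest nuclear genes are named. Members and lists were chosen with earlier results of these data known. The excitatory neuron markers are not reported here.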

Additional observations from a re-analysis of the deposited data

How the results depend on the processing

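Of the tests of single mitochondrial entries under 18 alternatives each, 197 kept their direction and their side of the call, 15 newly passed it, 20 no longer passed it and 2 changed sign. The 2 were inner Nd1, at 0.092 with library weights and 0.021 with a replicate block. The inner entry of the nuclear copy, at -0.24 in the reported fit, was 0.30 with library weights, 0.23 with the block, and -0.65 to 0.13 when libraries were left out. Leaving out each library in turn, 4 to 11 (without control replicate 4) mitochondrial entries were called lower. It was 4 without control replicate 1, 3 or 5 and without mutant replicate 4 or 5. With a library left out, 0 (without control replicate 1 or 5) to 1 mitochondrial entries had an adjusted p under 0.05. The median log2 fold change of the entries was -1.06 without control replicate 4. The number with an adjusted p under 0.05 was 3 with DESeq2, and 0 in limma without a trend and with the replicate block. The entries whose share of mitochondrial reads did not overlap numbered 1 to 2 with a library left out. The number was 0 once Co1, Co3-Nd4l and Nd3, 3 of the 4 entries that match the nuclear copy, were set aside. Nd3 was the only such entry with all libraries, so this 0 followed mostly from setting it aside. In the nuclear list, 1 (without control replicate 1 or mutant replicate 5) to 4 genes were called lower and 0 (without control replicate 1, mutant replicate 4 or mutant replicate 5) to 3 (without control replicate 5) higher. With nuclear reads as library size, 1 gene of that list was called lower and the median was -0.046, with library weights the median was -0.071, with libraries left out it was -0.34 to -0.10, and with the replicate block 0 were called higher. The causes of these changes were not tested.

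Libraries of the same number deviated together only weakly (correlations of 0.082 to 0.10 over 3 pairs), so the numbers were not taken to pair the libraries. Controls 1 and 3 deviated with mutants 2 and 3, and controls 4 and 5 with mutants 4 and 5, at correlations of 0.023 to 0.10, and the other 8 pairs were at -0.12 to -0.029. No label puts these libraries in batches, so this split was not fitted. The replicate block was the replicate number, so control replicate 1 and mutant replicate 2, each alone in a block, did not inform the genotype difference. With the block, 8 mitochondrial entries were called lower, in place of 6, and 1719 of all genes, in place of 988. Depth did not limit the mitochondrial values, the lowest of which rests on 131 reads, whereas the 4 libraries per genotype, the overlapping entries and the nuclear copies did.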
